A study of Homo sapiens with 4 samples.

Results

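The genes of sterol and fatty acid synthesis, most of which are controlled by the sterol regulatory element-binding proteins (SREBPs), were followed in RPE-1 cells between 4 h and 8 h of exposure to merbarone. The members were 35 genes chosen by symbol, and a member was tested where its CPM, its counts scaled to library size, exceeded 1 in at least 2 libraries. This left 34 of the 35, among 12559 genes tested of 23459 listed. RPE-1 is a wild type human epithelial line from the retinal pigment epithelium, made immortal with telomerase (hTERT). The cells were kept for 48 h in medium with 0.1% serum and then given 200 μM merbarone, a catalytic inhibitor of DNA topoisomerase II, for 4 h (2 replicates) or 8 h (2 replicates). Starvation, line and dose were thus shared by both groups, and untreated cells were not analysed here, so time with the drug cannot be told apart from time in low serum.

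SREBPs are transcription factors that are made as precursors in the membrane of the endoplasmic reticulum. When sterol is scarce, the escort protein SCAP carries them to the Golgi, where proteases cut the active factor free. When sterol is plentiful, the INSIG proteins hold SCAP back. The factor from SREBF2 acts mainly on cholesterol genes and those from SREBF1 mainly on fatty acid genes. The liver X receptors (LXRs) sense oxidised sterols and switch on genes of cholesterol export.

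Each library lists raw counts per gene, and libraries held between 8064450 and 10324697 counts. Levels are given as CPM after TMM normalization, which corrects for library composition, with replicate 1 before replicate 2. The log2 fold change (log2FC) is that of 8 h against 4 h, n = 2 libraries at each time. Adjusted p-values come from edgeR's quasi-likelihood test with Benjamini-Hochberg adjustment over all 12559 genes. A gene is called lower or higher below 0.05, and is a DEG where its absolute log2FC also exceeds 1. Of the markers of differentiated pigment epithelium, 3 of 10 passed the filter (MITF, OTX2 and PMEL, with a summed level between 93.4 and 113.9 CPM). Most of that sum was MITF, at 75.5 to 92.5 CPM, while PMEL had 7 to 12 counts per library. RPE65 had 2 to 7 counts per library, and DCT and RGR had 0 in all. The line markers KRT8, KRT18, VIM and CDH2 passed and CDH1 did not. Of 7 markers of other cell types, only CD68 passed, with 53.8 and 56.5 CPM at 4 h against 69.8 and 75.0 CPM at 8 h (log2FC 0.39, standard error 0.10, adjusted p = 0.00298), and its part in the results was not tested. PTPRC, PECAM1, CDH5, PLIN1 and ALB had at most 8 counts in a library and ADIPOQ had 0.

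Between 4 h and 8 h, 15 of the 18 enzymes of sterol synthesis fell, while several genes that sense, control or move sterol did not. Of the 34 members tested, 21 were called lower and 4 higher, where 18.8% of all genes tested were called lower and 19.9% higher. As shares of the members these are 61.8% and 11.8%. The lower calls included 6 DEGs (HMGCS1, IDI1, MVK, HSD17B7, SQLE and STARD4), which is 17.6% of the members against 3.88% of all genes. The largest rise, that of ABCA1, had a log2FC of 0.77 and so did not reach the DEG threshold, which 1.45% of all genes reached upwards. The median log2FC was −0.38 over the members and 0.00 over all genes. In 26 members both 8 h libraries lay below both 4 h libraries, and in 6 above, against 34.9% and 34.8% of all genes. These levels are relative to the other RNA of a whole culture, so a change shared by all genes would not be seen. The TMM factors were 1.036 and 1.039 at 4 h against 0.9703 and 0.9575 at 8 h. Fewer cells expressing a gene and less RNA per cell cannot be told apart.

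**Figure D1:**
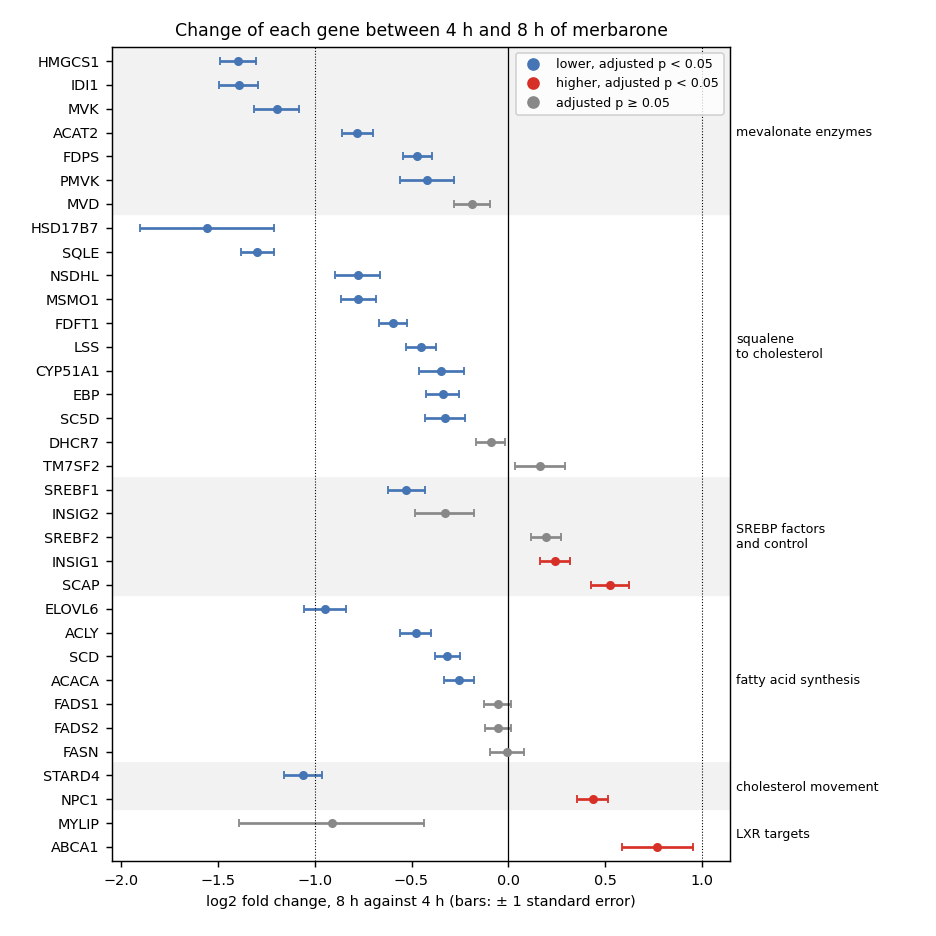
The log2FC of 8 h against 4 h (horizontal axis) for each of the 34 genes tested, sorted within its role. Points are edgeR estimates, bars are 1 standard error, and dotted lines mark the DEG threshold of 1 in either direction. Blue points lie in every role except the LXR targets, and the 4 red points are INSIG1, SCAP, NPC1 and ABCA1.

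The calls were repeated in 12 alternative analyses, and 17 of the 21 lower calls and 3 of the 4 higher calls passed in all of them. The exceptions were PMVK, CYP51A1, SC5D and ACACA among the lower and INSIG1 among the higher, and their values are given with each gene. By role, 15 of the 18 sterol synthesis enzymes were called lower, with a median log2FC of −0.53. Of the 7 fatty acid synthesis genes 4 were called lower, with a median of −0.25. Among the 5 SREBP factors and their control genes 1 was called lower and 2 higher, with a median of 0.20. As a description across the 34 members, log2FC and mean log2-CPM had a Pearson correlation of 0.33 and a Spearman correlation of 0.38, and across all genes the Pearson correlation was 0.23. These points share the same 4 libraries.

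**Figure D2:**
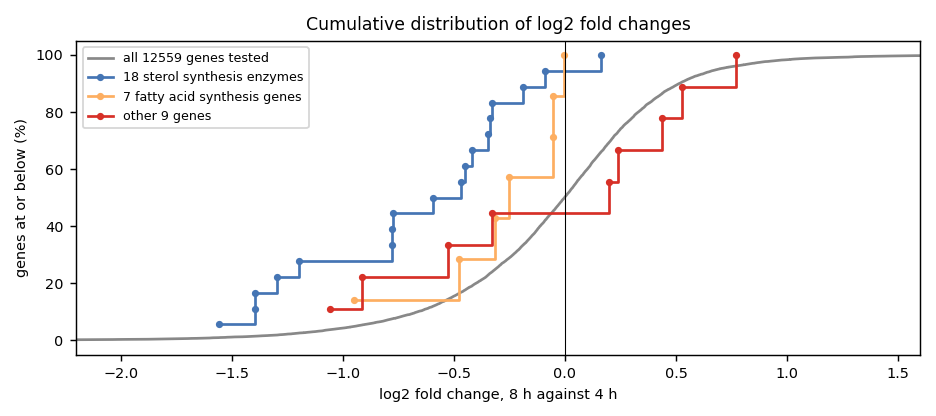
The share of genes (vertical axis, %) with a log2FC of 8 h against 4 h at or below the value on the horizontal axis, for all 12559 genes tested and for the members in 3 groups. The curve of the 18 sterol synthesis enzymes lies left of that of all genes, with medians of −0.53 and 0.00, while the other 9 genes spread to both sides.

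The promoters of 8 members, chosen after their values were seen, are shown because the classical SREBP-responsive promoter pairs an SREBP site with sites for the cofactors NF-Y (CCAAT) and Sp1 (GGGCGG). RefSeq windows of 300 bases (GRCh38.p14, 250 before to 50 after a transcript start) were found for 30 of the 34 tested members, 8 of them with several windows. FASN had no window, and neither did ACAT2, FDFT1 and SQLE, which were called lower. Below are the 150 bases before the start that coincides with that of the canonical GENCODE transcript, 5′ to 3′ on the gene's strand. Capitals mark CCAAT or its reverse complement, the palindromic E-box CACGTG, and the sterol element TCACNCCAC, each searched on both strands. The first 5 are DEGs that were lower at 8 h, and the last 3 are SREBF2 and the control genes INSIG1 and SCAP, which were not lower.
HMGCS1 (chr5:43313413-43313562, minus strand): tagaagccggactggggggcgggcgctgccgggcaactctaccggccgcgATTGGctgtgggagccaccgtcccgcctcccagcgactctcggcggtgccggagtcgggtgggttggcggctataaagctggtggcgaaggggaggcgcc
IDI1 (chr10:1049120-1049269, minus strand): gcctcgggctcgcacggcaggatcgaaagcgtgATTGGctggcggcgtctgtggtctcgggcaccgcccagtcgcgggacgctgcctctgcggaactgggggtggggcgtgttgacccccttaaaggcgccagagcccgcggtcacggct
MVK (chr12:109573644-109573793, plus strand): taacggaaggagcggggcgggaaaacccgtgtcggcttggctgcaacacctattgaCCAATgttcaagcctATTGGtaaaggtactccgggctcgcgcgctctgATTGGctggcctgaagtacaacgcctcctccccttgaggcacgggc
HSD17B7 (chr1:162790552-162790701, plus strand): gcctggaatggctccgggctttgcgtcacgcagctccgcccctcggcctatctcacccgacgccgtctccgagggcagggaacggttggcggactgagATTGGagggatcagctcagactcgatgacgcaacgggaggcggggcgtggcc
STARD4 (chr5:111512536-111512685, minus strand): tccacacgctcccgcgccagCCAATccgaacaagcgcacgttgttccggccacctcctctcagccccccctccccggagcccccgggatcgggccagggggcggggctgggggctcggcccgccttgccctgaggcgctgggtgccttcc
INSIG1 (chr7:155297728-155297877, plus strand): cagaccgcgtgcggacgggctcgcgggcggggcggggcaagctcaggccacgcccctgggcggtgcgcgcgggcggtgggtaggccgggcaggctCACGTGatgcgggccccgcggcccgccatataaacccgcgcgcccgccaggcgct
SREBF2 (chr22:41832955-41833104, plus strand): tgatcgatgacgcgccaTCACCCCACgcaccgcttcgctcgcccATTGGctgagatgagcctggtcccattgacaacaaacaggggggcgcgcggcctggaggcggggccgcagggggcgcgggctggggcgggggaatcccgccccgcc
SCAP (chr3:47475942-47476091, minus strand): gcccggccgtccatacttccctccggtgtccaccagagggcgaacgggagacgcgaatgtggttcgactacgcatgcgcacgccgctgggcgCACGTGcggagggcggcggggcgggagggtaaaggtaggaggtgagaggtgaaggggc
The stretch of MVK holds 3 CCAAT boxes, those of HMGCS1, IDI1, HSD17B7, STARD4 and SREBF2 hold 1 each, and those of INSIG1 and SCAP hold no match to CCAAT in these letters.

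Over whole windows, CCAAT was present in 62.5% of the 40 windows of the members and in 34.8% of the windows of all genes tested. Counted by gene, it was in 21 of 30 members, which is 70.0%, and in 43.4% of all genes tested. GGGCGG was in 36 of the members' 40 windows and in 66.3% of all windows. By gene, GGGCGG was in 96.7% of members and 77.8% of all genes tested. CACGTG was in 15.0% and 9.30% of windows, and by gene in 5 members (SCAP, INSIG1, ABCA1, SC5D and LSS), which is 16.7%, against 12.6% of all genes tested. The exact letters TCACNCCAC were found in 1 member, SREBF2, whose match begins 133 bases before the start, and in 1.48% of all genes tested. Of the 18 members with a window that were called lower, 14 held CCAAT (77.8%), and of the other 12, 7 did (58.3%). GGGCGG was in 17 of 18 against 12 of 12. CACGTG was in 2 of 18 against 3 of 12, and TCACNCCAC in 0 of 18 against 1 of 12. These counts are small, and no difference between lower and other members was tested for any motif. Some of the other 12, such as MVD and DHCR7, were called lower in some alternative analyses. Letters shared by overlapping motifs were counted for each. A match is a description of the sequence and not a measured binding site, and the sterol element is known in many spellings that these letters do not cover.

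The early steps turn acetyl-CoA into farnesyl diphosphate by way of mevalonate. The 7 mevalonate enzymes together had 977 and 957 CPM at 4 h against 584 and 593 CPM at 8 h, a ratio of 0.609, and 6 of the 7 were called lower. HMGCS1 (NCBI Gene 3157, chromosome 5, 43287572 to 43313614, minus strand, hg19) encodes the synthase that makes HMG-CoA. It had 109 and 109.7 CPM at 4 h against 42.0 and 41.2 CPM at 8 h, and replicates lay close together at each time. This is a fall of 62.0% (log2FC −1.39, standard error 0.09, adjusted p = 2.09e-09), and only 1.44% of all genes tested had a lower log2FC. IDI1 (NCBI Gene 3422, chromosome 10, 1085092 to 1095059, minus strand), the isomerase that makes the reactive isoprene unit, had 149.5 and 128 CPM at 4 h against 56.4 and 49.0 CPM at 8 h. Its log2FC equalled that of HMGCS1 within the standard error (log2FC −1.39, standard error 0.10, adjusted p = 4.81e-09). The promoter stretches of HMGCS1 and IDI1 each hold a CCAAT box, as does that of SREBF2, which was not lower. Over whole windows, 43.4% of all genes tested held CCAAT. MVK (NCBI Gene 4598, chromosome 12, 110011060 to 110035930, plus strand), mevalonate kinase, had 50.2 and 52.5 CPM at 4 h against 21.4 and 23.5 CPM at 8 h. The fall was 56.3% (log2FC −1.20, standard error 0.12, adjusted p = 2.09e-07).

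The other enzymes of the mevalonate part had log2FC values nearer to 0. ACAT2, which joins acetyl-CoA units at the first step, had 246 and 236 CPM at 4 h against 146 and 135 CPM at 8 h (log2FC −0.78, standard error 0.08, adjusted p = 3.59e-07). Its exons overlap those of TCP1 on the opposite strand, a gene with a log2FC of −0.28. They also overlap SOD2-OT1 on that strand, with at most 34 counts in a library and a log2FC of −2.32. The sources used here do not say whether reads were counted by strand, so part of the ACAT2 count may belong to these genes. FDPS, farnesyl diphosphate synthase, had 251 and 255 CPM at 4 h against 183 and 182 CPM at 8 h (log2FC −0.47, standard error 0.08, adjusted p = 7.38e-05). The annotation names 8 pseudogenes after FDPS and 3 after IDI1, and reads that fit a copy as well were dropped, so their levels are uncertain, while the same rule held in each library. The same holds for CYP51A1, with 3 pseudogenes and 2 further genes that share exons with it on its strand, and for HSD17B7 and SCD, with 1 pseudogene each. Exons of EBP overlap another gene on its strand, and those of HMGCS1, LSS, ACLY, ELOVL6 and SREBF2 overlap genes on the opposite strand. No counts are given here for those genes, so these levels are uncertain too. Antisense genes that overlap IDI1 and FDPS had at most 3 and 5 counts in a library. PMVK, phosphomevalonate kinase, had 28.3 and 24.7 CPM at 4 h against 19.4 and 20.2 CPM at 8 h (log2FC −0.42, standard error 0.14, adjusted p = 0.0217). The call on PMVK was lost with DESeq2 (adjusted p = 0.105), with the correction for abundance (0.0519), without replicate 1 at 4 h (0.213) and without replicate 1 at 8 h (0.0573). MVD, the decarboxylase of the pathway, had 143 and 151 CPM at 4 h against 116 and 142 CPM at 8 h, and was not called (log2FC −0.19, standard error 0.09, adjusted p = 0.117). Its 8 h libraries differed more from each other than its 4 h libraries did. The log2FC of MVD was −0.34 without replicate 2 at 8 h and −0.05 without replicate 1 at 8 h. It was called lower with library size alone (log2FC −0.30, adjusted p = 0.0142), after the correction for abundance (−0.30, 0.0161) and with the replicate block (0.0401).

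**Figure D3:**
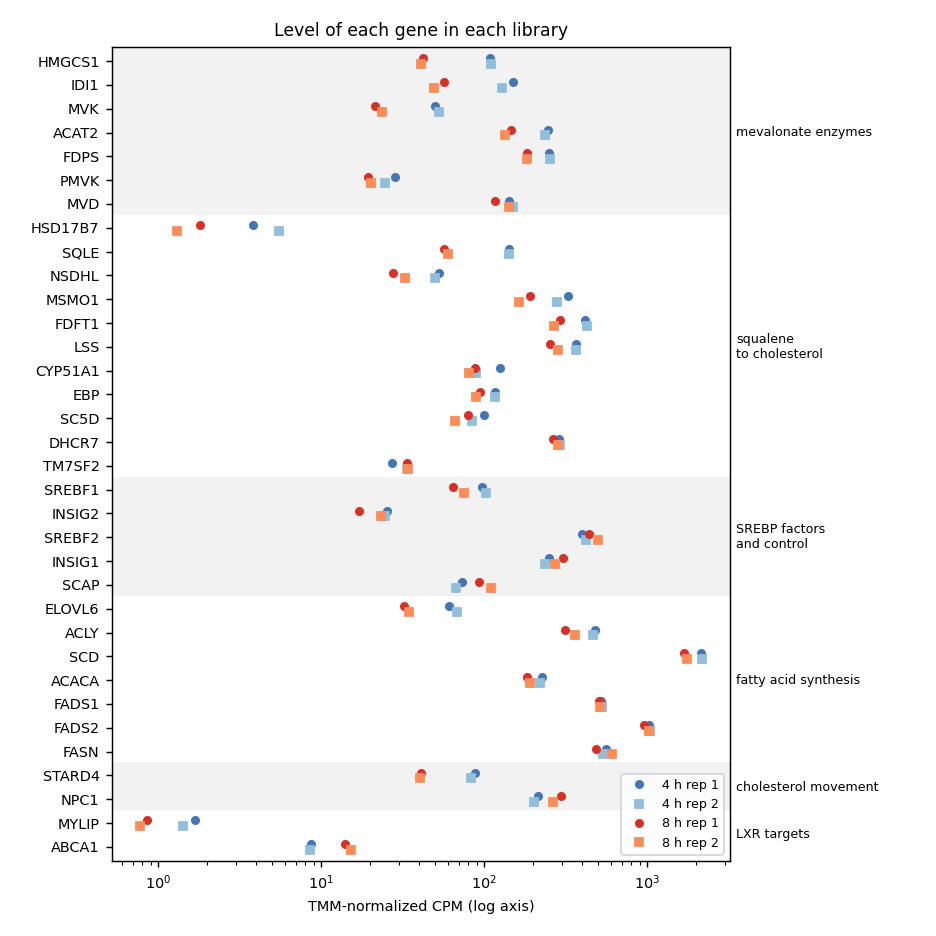
TMM-normalized CPM (horizontal log axis) of each of the 34 genes in each of the 4 libraries, with genes in the order of the plot of log2FC. For HMGCS1, SQLE, MVK and STARD4 the 8 h libraries are well apart from the 4 h libraries, whereas for DHCR7, FADS1 and FADS2 all 4 libraries lie close together. For FASN the 8 h libraries lie on either side of the 4 h libraries.

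The later steps join farnesyl units into squalene and close and trim the ring to cholesterol. Their 11 enzymes summed to 1966 and 1888 CPM at 4 h against 1378 and 1363 CPM at 8 h, a ratio of 0.711. SQLE (NCBI Gene 6713, chromosome 8, 126010739 to 126034525, plus strand), squalene epoxidase, a rate-controlling enzyme of this branch, had 142 and 142 CPM at 4 h against 56.4 and 59.6 CPM at 8 h. It fell by more than any other well-counted enzyme after squalene synthesis, by 59.3% (log2FC −1.30, standard error 0.09, adjusted p = 2.25e-09). FDFT1, squalene synthase, which feeds SQLE, had 418 and 426 CPM at 4 h against 290.2 and 268 CPM at 8 h (log2FC −0.60, standard error 0.07, adjusted p = 4.63e-06). The ratio of FDFT1 to SQLE counts per kb of transcript, which does not depend on library scaling, was 4.27 and 4.36 in the 4 h libraries against 7.48 and 6.54 in the 8 h libraries.

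HSD17B7 (NCBI Gene 51478, chromosome 1, 162760492 to 162782613, plus strand), a sterol ketoreductase, rested on few reads, with 41 and 58 counts at 4 h against 17 and 10 counts at 8 h. Its log2FC of −1.56 was the lowest of the members, with the widest standard error of any called member, 0.34 (adjusted p = 0.00139). Without 1 library in turn it ran from −1.84 to −1.28. NSDHL and MSMO1, which act with it to strip methyl groups from the ring, fell by amounts similar to each other and smaller than that of HSD17B7. NSDHL had 53.1 and 49.7 CPM at 4 h against 27.5 and 32.7 CPM at 8 h (log2FC −0.78, standard error 0.12, adjusted p = 3.3e-05). MSMO1 had 327 and 280.5 CPM at 4 h against 191 and 164 CPM at 8 h (log2FC −0.78, standard error 0.09, adjusted p = 2.01e-06). LSS, lanosterol synthase, which closes the ring, had 365 and 368 CPM at 4 h against 252 and 285 CPM at 8 h (log2FC −0.45, standard error 0.08, adjusted p = 0.000148).

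For EBP, SC5D and CYP51A1, which also reshape the ring, the log2FC values were nearer to 0. EBP, a sterol isomerase, had 116 and 116 CPM at 4 h against 94.6 and 89.0 CPM at 8 h (log2FC −0.34, standard error 0.08, adjusted p = 0.00337). SC5D, a sterol desaturase, had 99.5 and 84.1 CPM at 4 h against 79.6 and 66.2 CPM at 8 h (log2FC −0.33, standard error 0.10, adjusted p = 0.0177). The SC5D call was lost with DESeq2 (adjusted p = 0.0614), without replicate 1 at 4 h (0.264) and without replicate 2 at 8 h (0.114). CYP51A1, the lanosterol demethylase, had 125 and 89.0 CPM at 4 h against 87.5 and 80.8 CPM at 8 h, so that replicate 2 at 4 h lay nearer to the 8 h libraries than to its own replicate. Its fall (log2FC −0.35, standard error 0.12, adjusted p = 0.0263) rested on replicate 1 at 4 h, without which the log2FC was −0.09 (adjusted p = 0.64), and it was not called by DESeq2 (0.0724).

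DHCR7, the reductase that completes cholesterol, was the least changed of the well-counted sterol enzymes. It had 289 and 293 CPM at 4 h against 264 and 283 CPM at 8 h (log2FC −0.09, standard error 0.07, adjusted p = 0.358), and was called lower with library size alone (log2FC −0.20, adjusted p = 0.0424) and after the correction for abundance (−0.23, 0.023). Per kb, the ratio of DHCR7 to SQLE was 2.29 and 2.32 in the 4 h libraries against 5.27 and 5.36 in the 8 h libraries. TM7SF2, a sterol reductase, had 27.1 and 33.4 CPM at 4 h against 33.5 and 34.2 CPM at 8 h (log2FC 0.16, standard error 0.13, adjusted p = 0.328). It was the only sterol synthesis enzyme whose 8 h libraries both lay above both 4 h libraries, though replicate 2 at 4 h and replicate 1 at 8 h differed little.

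**Figure D4:**
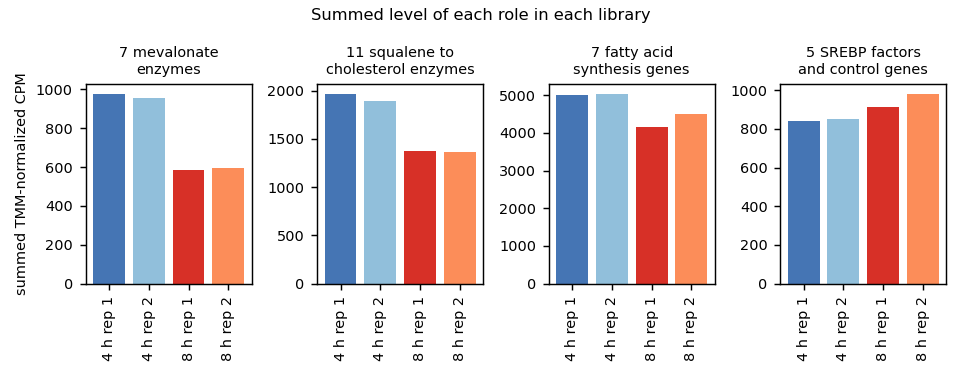
Summed TMM-normalized CPM (vertical axes, each from 0) of 4 roles in each library. The sums of the 7 mevalonate enzymes and the 11 later enzymes are lower in both 8 h libraries, and that of the 7 fatty acid genes less so. The sum of the 5 SREBP factors and control genes is higher (843 and 853 CPM at 4 h, 914 and 981 at 8 h). Its largest part is SREBF2, which was not called, and of the 5 genes 1 was called lower and 2 higher.

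The genes of the SREBP system itself did not share one direction. SREBF1 (NCBI Gene 6720, chromosome 17, 17713713 to 17740316, minus strand) had 97.0 and 103 CPM at 4 h against 64.1 and 74.8 CPM at 8 h, a fall of 30.6% (log2FC −0.53, standard error 0.09, adjusted p = 0.00022). An exon of RAI1 overlaps it on the other strand, and that gene had a log2FC of 0.39. SREBF2 (NCBI Gene 6721, chromosome 22, 42229109 to 42303310, plus strand) had 396 and 421 CPM at 4 h against 437 and 499 CPM at 8 h. Both 8 h libraries lay above both 4 h libraries, but the test did not pass (log2FC 0.20, standard error 0.08, adjusted p = 0.0532). It passed with the replicate number as a block (log2FC 0.19, adjusted p = 0.0191). With library size alone the log2FC of SREBF2 was 0.09 (adjusted p = 0.379), and after the correction for abundance 0.04 (0.693). It was 0.29 without replicate 1 at 8 h and 0.10 without replicate 2 at 8 h. The ratio of SREBF2 to SREBF1 per kb was 3.82 and 3.84 in the 4 h libraries against 6.38 and 6.25 in the 8 h libraries.

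SCAP, the sterol-sensing escort of the precursors, had 73.2 and 67.6 CPM at 4 h against 92.7 and 110.4 CPM at 8 h. It rose by 43.9% (log2FC 0.53, standard error 0.10, adjusted p = 0.000297). INSIG1 (NCBI Gene 3638, chromosome 7, 155089486 to 155101945, plus strand), which retains SCAP and is itself known as an SREBP target, had 251 and 237 CPM at 4 h against 303 and 274 CPM at 8 h. Its 8 h libraries lay above its 4 h libraries (log2FC 0.24, standard error 0.08, adjusted p = 0.0199), but the call was lost with library size alone (adjusted p = 0.186), after the correction for abundance (0.299), without either 4 h replicate (0.0758 without replicate 1, 0.195 without replicate 2) and without replicate 1 at 8 h (0.11). In these and all other alternatives its log2FC stayed above 0. INSIG2, its relative, which is less dependent on SREBP, had 25.4 and 24.7 CPM at 4 h against 17.0 and 23.2 CPM at 8 h. That difference was not called (log2FC −0.33, standard error 0.15, adjusted p = 0.0963), but was called with library size alone (0.0266) and with the replicate block (0.049). The log2FC of INSIG2 was −0.56 without replicate 2 at 8 h and −0.11 without replicate 1 at 8 h. INSIG1 to HMGCS1, both known as SREBP targets, stood at 4.22 and 3.97 per kb in the 4 h libraries against 13.2 and 12.2 in the 8 h libraries.

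**Figure D5:**
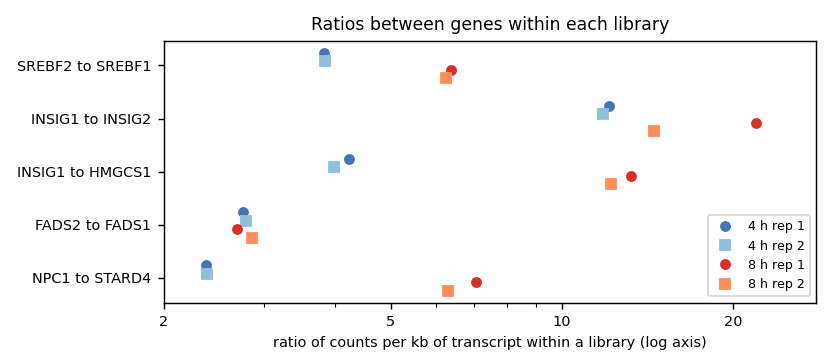
Ratio of counts per kb of transcript between named genes in each library (horizontal log axis). Such ratios do not depend on how libraries are scaled. INSIG1 to HMGCS1 is 4.22 and 3.97 at 4 h against 13.2 and 12.2 at 8 h, while FADS2 to FADS1 stays between 2.69 and 2.85 in all 4 libraries.

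Fatty acid synthesis builds on the same acetyl-CoA. Its 7 genes summed to 4998 and 5034 CPM at 4 h against 4165 and 4506 CPM at 8 h, a ratio of 0.864. ELOVL6 (NCBI Gene 79071, chromosome 4, 110967002 to 111120355, minus strand), which lengthens saturated fatty acids, moved most, with 60.7 and 68.1 CPM at 4 h against 32.3 and 34.5 CPM at 8 h. It fell by 48.2% (log2FC −0.95, standard error 0.11, adjusted p = 1.46e-06), just short of the DEG threshold. ACLY, which makes acetyl-CoA from citrate for both pathways, had 476 and 467 CPM at 4 h against 314 and 363 CPM at 8 h (log2FC −0.48, standard error 0.08, adjusted p = 9.18e-05). SCD (NCBI Gene 6319, chromosome 10, 102106990 to 102124583, plus strand), the desaturase that makes monounsaturated fatty acids, had the highest level per kb of all members, at 410.1 CPM per kb at 4 h and 329.6 at 8 h. In CPM it had 2133 and 2169 at 4 h against 1692 and 1766 at 8 h, so the groups were well apart although the fall was small (log2FC −0.32, standard error 0.06, adjusted p = 0.000692).

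ACACA, acetyl-CoA carboxylase, had 225 and 219 CPM at 4 h against 182 and 191 CPM at 8 h (log2FC −0.25, standard error 0.08, adjusted p = 0.0133), and its call was lost without either 4 h replicate (adjusted p = 0.108 without replicate 1 and 0.0711 without replicate 2). FASN, the fatty acid synthase, had 559.6 and 538 CPM at 4 h against 486 and 608 CPM at 8 h, and its groups overlapped (log2FC −0.01, standard error 0.09, adjusted p = 0.963). Its log2FC ran from −0.18 to 0.15 when 1 library was left out. FADS1 and FADS2 encode desaturases of polyunsaturated fatty acids. Their annotated spans overlap on opposite strands, though their canonical exons do not. If reads were not counted by strand, part of each count may belong to the other gene. FADS1 and FADS2 gave log2FC values of −0.06 and −0.05 (standard errors 0.07 and 0.07, adjusted p = 0.558 and 0.572). Both were called lower after the correction for abundance (log2FC −0.21 and −0.22, adjusted p = 0.022 and 0.0136). FADS2 had 1019 and 1044 CPM at 4 h against 957 and 1032 at 8 h, and FADS1 had 524 and 529 CPM at 4 h against 503 and 511 CPM at 8 h.

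Genes that move cholesterol went opposite ways. STARD4 (NCBI Gene 134429, chromosome 5, 110831731 to 110848288, minus strand), a carrier of sterol between membranes and a known SREBP target, had 87.5 and 82.5 CPM at 4 h against 41.0 and 40.6 CPM at 8 h. It fell by 52.0% (log2FC −1.06, standard error 0.10, adjusted p = 1.03e-07), and the antisense gene STARD4-AS1, whose exons overlap it, had at most 20 counts in a library. NPC1 (NCBI Gene 4864, chromosome 18, 21086148 to 21166470, minus strand), which exports cholesterol from lysosomes, had 213 and 202 CPM at 4 h against 297 and 263 CPM at 8 h. It rose by 35.2% (log2FC 0.44, standard error 0.08, adjusted p = 0.000287). Exons of RMC1 overlap it on the opposite strand, a gene with 174 to 252 counts per library and a log2FC of 0.29, so the level of NPC1 is uncertain by part of these. Per kb, NPC1 to STARD4 stood at 2.37 and 2.38 in the 4 h libraries against 7.06 and 6.32 in the 8 h libraries.

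Of the LXR targets, ABCA1 (NCBI Gene 19, chromosome 9, 107543287 to 107690436, minus strand), the pump that hands cholesterol to lipoproteins, had 8.61 and 8.51 CPM at 4 h against 13.98 and 15.3 CPM at 8 h. It rose by 70.5% from a low level (log2FC 0.77, standard error 0.18, adjusted p = 0.00232) and was higher in both 8 h libraries. MYLIP, a ubiquitin ligase that degrades lipoprotein receptors, lay just inside the filter, with 18 and 15 counts at 4 h against 8 and 6 counts at 8 h. It passed through the 4 h libraries alone, at 1.74 and 1.47 CPM by library size against 0.827 and 0.744 at 8 h, and was not called (log2FC −0.91, standard error 0.48, adjusted p = 0.14). ABCG1, another cholesterol exporter, lay outside the filter, with 0 counts in every library. Over the 38242668 counts of the series, a count of 0 allows up to 3 counts, or 0.0784 CPM, and covers counting error only.

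The wider pathway was read from lists of other genes. Among 13 other SREBP-responsive genes 5 were called lower (38.5%) and 3 higher (23.1%), with a median log2FC of −0.18. Of all genes tested 18.8% were lower and 19.9% higher. LPIN1, a phosphatase of glycerolipid synthesis, had 202 and 215 CPM at 4 h against 102 and 107 CPM at 8 h (log2FC −1.001, standard error 0.08, adjusted p = 2.26e-08). PNPLA3, a lipid droplet enzyme, had 14.4 and 16.3 CPM at 4 h against 4.91 and 9.33 CPM at 8 h (log2FC −1.13, standard error 0.23, adjusted p = 0.000663). GPAM, which starts glycerolipid synthesis, was lower as well (log2FC −0.60, standard error 0.14, adjusted p = 0.00185). The higher genes were PIP4P1 (log2FC 0.60, standard error 0.12, adjusted p = 0.000658), SLC25A1, the mitochondrial citrate carrier (log2FC 0.37, standard error 0.10, adjusted p = 0.00874), and MID1IP1, an activator of acetyl-CoA carboxylase (log2FC 0.34, standard error 0.11, adjusted p = 0.0192).

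Of 8 other genes that process or degrade SREBP and its partners, 3 were called higher (37.5%, against 19.9% of all genes) and 1 lower (12.5%, against 18.8%), with a median of 0.15. RNF145, a ubiquitin ligase acting on SCAP, had 69.5 and 73.2 CPM at 4 h against 106 and 107 CPM at 8 h (log2FC 0.58, standard error 0.09, adjusted p = 3.4e-05). SPRING1, a partner of the site-1 protease, had 58.3 and 60.4 CPM at 4 h against 72.5 and 78.3 CPM at 8 h (log2FC 0.34, standard error 0.09, adjusted p = 0.00688), and ERLIN1 was the lower gene, near the threshold (log2FC −0.20, adjusted p = 0.0487).

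The non-sterol branch, which turns farnesyl diphosphate into ubiquinone, dolichol and protein prenyl groups, had 4 of 11 genes called lower (36.4%, against 18.8% of all genes) and 0 higher, with a median of −0.14. The lower genes were FNTB, a farnesyltransferase subunit with 29 and 28 counts at 4 h against 7 and 9 counts at 8 h (log2FC −1.502, standard error 0.42, adjusted p = 0.0078), PDSS1 and PDSS2, which build the ubiquinone tail (log2FC −0.86 and −0.51), and another with a smaller change. FNTB shares exons with the read-through gene CHURC1-FNTB and is uncertain. The summed level of the 11 genes was 330 and 334 CPM at 4 h against 338 and 312 CPM at 8 h.

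Among 10 other genes of cholesterol transport and storage, 3 were called higher and 2 lower, against 19.9% and 18.8% of all genes, with a median of 0.11. OSBP, which exchanges sterol between membranes, had 86.6 and 86.5 CPM at 4 h against 125 and 132 CPM at 8 h (log2FC 0.57, standard error 0.08, adjusted p = 2.74e-05). STARD3, a late endosomal sterol carrier, rose (log2FC 0.46, standard error 0.10, adjusted p = 0.00171), and NPC2, the lysosomal partner of NPC1, rose by less (log2FC 0.24, standard error 0.08, adjusted p = 0.0192). OSBPL2 and LIPA, the lysosomal lipase, were the lower genes (log2FC −0.34 and −0.24). Among 9 LXR receptors, partners and other targets, 3 were called higher (33.3%, against 19.9% of all genes) and 0 lower, with a median of 0.14. They included NR1H2, which encodes an LXR (log2FC 0.54, standard error 0.09, adjusted p = 0.000104), and PLTP, a phospholipid transfer protein (log2FC 0.27, standard error 0.10, adjusted p = 0.0352). Exons of PIP4P1, PDSS1 and PLTP overlap a gene on the opposite strand (APEX1, ABI1 and CTSA), and 5 pseudogenes are named after SLC25A1, 3 after SPRING1 and 2 after PDSS1, so these levels are uncertain too.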

How the data were processed

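RNA-Seq of RPE-1 cells gave 4 libraries, 2 after 4 h and 2 after 8 h of merbarone. Per the methods and the submitters' processing notes, the authors mapped reads to hg19 with Bowtie 1.2.0, kept those with a single position, and deposited raw counts per gene under NCBI Gene identifiers, without normalization or filtering. The annotation and counting tool are not given in the sources used here. Ungapped mapping loses reads across splice junctions.

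The filter was a CPM above 1 in 2 or more libraries, and the genes it kept were tested by edgeR 4.0.16 (R 4.3.3) with TMM factors and time as the only term. The standard error is the size of the log2FC divided by the square root of F. Limma-Voom (limma 3.58.1), DESeq2 1.42.0, other scalings and filters, a loess correction of each library for abundance (mean log2-CPM), a replicate block, and leaving out each library were alternatives. The tests were first tried on simulated data. Depth was 8064450 to 10324697 counts per library and the biological coefficient of variation 6.52%. With 2 libraries against 2, an exact permutation test cannot give a p below 0.333.

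Symbols came from RefSeq, and positions, exons and canonical transcript lengths from GENCODE on GRCh37, the assembly of hg19. Promoters are RefSeq windows on GRCh38.p14, a different build. Each printed window was placed in GRCh37 by exact match of its letters, and where a gene had several, the one at the canonical start was printed, a choice made after the windows had been seen. Members and lists were chosen with earlier results of these data known. Every tested member is given, and from each other list at most 3 called genes a direction, by size, some of which are not reported here. No list was tested as a set.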

Additional observations from a re-analysis of the deposited data

How the results depend on the processing

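The counts of members called and the median log2FC were recomputed under 12 alternatives. The number called lower was 21 with Limma-Voom, RLE factors, a CPM filter of 2 or no filter, 18 with DESeq2, and 24 with library size alone or after the correction for abundance. The number called higher was between 3 and 5, and DEGs were 6 or 7. Library size alone moved the median of the members from −0.38 to −0.49 and that of all genes from 0.00 to −0.11, and the correction for abundance moved that of the members to −0.47 while that of all genes stayed at 0.00. Leaving out each library in turn gave between 17 and 22 lower, 3 or 4 higher and a median from −0.46 to −0.34, where the lone library of a time is assumed to vary like the others. FASN ran from −0.18 to 0.15, turning positive without replicate 1 of either time, and FADS2 from −0.11 to 0.0011, turning without replicate 1 at 8 h, and neither was called. With the replicate number as a block, 23 members were lower and 5 higher, as MVD (adjusted p = 0.0401), INSIG2 (0.049) and SREBF2 (0.0191) were added. Deviations of same-numbered libraries had a correlation of 0.0484, so the number is not treated as a pairing. With CACGTG in place of TCACNCCAC, 16.7% of members held the motif and not 3.33%. CACGTG is a different and commoner motif, held by 12.6% of all genes tested against 1.48% for TCACNCCAC. Depth limits genes with few counts, among them HSD17B7, MYLIP, ABCA1, FNTB, PDSS1 and ANGPTL4.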

Other observations

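Fatty acid oxidation genes and PPAR targets, which run against synthesis, were called in both directions. Of 13 listed, 12 passed the filter, 3 were called lower (25.0%) and 2 higher (16.7%), near the 18.8% and 19.9% of all genes tested, and the median log2FC was −0.02. CPT1A, which admits fatty acids to mitochondria, had 73.4 and 71.2 CPM at 4 h against 43.1 and 51.7 CPM at 8 h (log2FC −0.61, standard error 0.10, adjusted p = 0.000128). ANGPTL4, a lipase inhibitor and PPAR target, had 8.52 and 11.3 CPM at 4 h against 3.09 and 5.18 CPM at 8 h (log2FC −1.29, standard error 0.26, adjusted p = 0.000622), and ACADM, a dehydrogenase of medium chains, was lower too (log2FC −0.56, standard error 0.15, adjusted p = 0.00515). The receptor gene PPARD had 226 and 203 CPM at 4 h against 356 and 367 CPM at 8 h (log2FC 0.75, standard error 0.08, adjusted p = 4.29e-07), and PPARA rose from a lower level (log2FC 0.61, standard error 0.18, adjusted p = 0.013). PDK4 had at most 1 count in a library. Among the line markers, KRT18 was called lower (log2FC −0.51, standard error 0.08, adjusted p = 3.72e-05) and VIM higher (log2FC 0.36, standard error 0.07, adjusted p = 0.000623), in the same libraries as the sterol enzymes. The annotation names 67 pseudogenes after KRT18, so its level is uncertain. Their part in the results was not tested.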
